A study of Mus musculus with 6 samples.

Results

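The 6 Pax genes of the neural tube, Pax3, Pax7, Pax6, Pax2, Pax5 and Pax8, were followed in chromatin accessibility data from mouse neural progenitors. Their members are 85 of the 52223 accessible intervals in the data. An interval belonged to a Pax gene when its midpoint lay inside the gene, or when the nearest end of any protein-coding gene was an end of that Pax gene within 300 kb. For Pax6 the stretch over its neighbour Elp4, which holds known Pax6 enhancers, was also included, and it brought no interval that the distance rule had not already taken. Pax3 held 14 intervals, Pax7 13, Pax6 12, Pax2 20, Pax5 18 and Pax8 8.

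The assay was ATAC-seq, which tags open DNA for sequencing with the Tn5 transposase. The 2 groups had 3 libraries each. Nr6a1OE progenitors carried a lentivirus for Nr6a1 joined by a 2A peptide to the red fluorescent protein mScarlet3, and mScarlet progenitors carried a lentivirus for mScarlet3 alone. Nr6a1 is a nuclear receptor with no known ligand, a repressor of Oct4 in differentiating stem cells, and the comparison asked what its overexpression does to progenitor chromatin. Both groups were made from embryonic stem cells in the same way, with 10 ng/ml bFGF at the start and 5 µM of the GSK3 inhibitor CHIR99021 from day 2. They then received 100 nM retinoic acid with 10 nM Smoothened agonist (SAG) from day 3, and only the 10 nM SAG from day 5, when the virus went on. From each sample 50000 fluorescent cells, sorted on day 9, were used. Neither the promoter of the viral genes nor the stem cell line is given in the labels used here.

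Pax genes encode transcription factors with a paired DNA-binding domain, and in the neural tube they divide progenitors into domains along the dorsoventral axis. Pax3 and Pax7 mark dorsal progenitors and are repressed ventrally by hedgehog signalling. Pax6 is made in a broad middle domain and is lowered by the strongest hedgehog signal. Pax2, Pax5 and Pax8 form a subfamily that acts at the midbrain-hindbrain boundary, and Pax2 and Pax8 are later made in inhibitory interneurons of the spinal cord.

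Promoter windows of 300 bases around RefSeq starts (GRCm38.p6, the assembly of mm10) were matched for Pax2, Pax5, Pax6, Pax7 and Pax8. Pax2 had 3 windows, Pax6 had 2 and the others 1 each. Shown here are the window that lies in an interval that changed (Pax7) and 3 windows in strong or gene-start intervals that did not pass the test (both of Pax6 and window 3 of Pax2). Each is written 5′ to 3′ on the strand of the gene, with CpG dinucleotides in capitals.
Pax7, chr4:139832919-139833218, minus strand: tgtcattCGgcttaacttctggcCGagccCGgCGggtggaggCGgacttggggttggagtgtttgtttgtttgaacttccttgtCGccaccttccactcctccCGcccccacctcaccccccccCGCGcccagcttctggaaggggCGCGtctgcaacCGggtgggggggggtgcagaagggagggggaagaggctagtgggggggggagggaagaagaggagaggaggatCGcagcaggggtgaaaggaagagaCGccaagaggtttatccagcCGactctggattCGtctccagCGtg
Pax6 window 1, chr2:105668646-105668945, plus strand: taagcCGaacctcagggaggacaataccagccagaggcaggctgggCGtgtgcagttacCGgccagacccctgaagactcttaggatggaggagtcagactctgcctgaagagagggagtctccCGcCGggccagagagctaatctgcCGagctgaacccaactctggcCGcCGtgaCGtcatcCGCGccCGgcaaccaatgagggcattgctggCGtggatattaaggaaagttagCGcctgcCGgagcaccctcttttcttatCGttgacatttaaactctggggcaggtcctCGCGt
Pax6 window 2, chr2:105682213-105682512, plus strand: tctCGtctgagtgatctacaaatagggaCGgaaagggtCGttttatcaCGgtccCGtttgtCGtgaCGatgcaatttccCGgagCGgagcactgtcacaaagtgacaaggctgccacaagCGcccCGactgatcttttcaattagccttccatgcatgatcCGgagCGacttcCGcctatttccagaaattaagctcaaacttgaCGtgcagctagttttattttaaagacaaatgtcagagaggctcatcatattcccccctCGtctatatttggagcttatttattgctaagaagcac
Pax2 window 3, chr19:44756656-44756955, plus strand: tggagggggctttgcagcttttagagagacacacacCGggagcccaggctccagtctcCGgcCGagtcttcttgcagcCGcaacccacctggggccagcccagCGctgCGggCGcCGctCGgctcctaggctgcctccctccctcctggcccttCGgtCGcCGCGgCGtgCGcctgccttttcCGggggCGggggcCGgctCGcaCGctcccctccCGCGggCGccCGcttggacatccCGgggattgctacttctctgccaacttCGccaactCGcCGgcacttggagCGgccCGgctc

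The Pax7 window held 17 CpGs and a GC content of 63.7%, the Pax6 windows 18 and 16 CpGs, and window 3 of Pax2 30 CpGs. The median over all 32851 RefSeq windows of this length was 7 CpGs, and 31.4% of them held as many as the Pax7 window or more. The windows of Pax5 (23 CpGs) and Pax8 (7 CpGs) overlapped no interval. Binding motifs of nuclear receptors were then searched for on both strands. The core motif AGGTCA was found in 0 of the 8 Pax windows, against 16.3% of all windows. The longer forms that contain it, TCAAGGTCA and the direct repeat AGGTCAAGGTCA, were also found in 0 of the 8, against 0.423% and 0.00609% of all windows. These letters are not in these windows, and the sequence of the intervals beyond them was not analysed here.

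Each library held 6857763 to 8030029 fragments in intervals, and 51637 intervals were tested. Values are given as CPM, the fragment count scaled to the size of the library, and levels between intervals are compared per kb of interval. Accessibility does not measure expression of the virus-borne Nr6a1, so it is no check of the labels. Whether fragments of the viral Nr6a1 DNA were counted in intervals at Nr6a1 was not tested. Of 8 intervals at Nr6a1, 1 opened, with 64.6 ± 2.66 CPM in Nr6a1OE and 52.4 ± 3.79 CPM in mScarlet (SD, n = 3 each). At the ends of 6 neural progenitor genes the intervals held 68.4 CPM per kb at Hes5, 58.3 at Sox1, 35.4 at Nes, 34.1 at Sox2, 26.7 at Sox3 and 14.9 and 5.98 at Msi1, against a median of 30.6 over 12591 intervals within 1 kb of a gene end. Several gene-end intervals of markers of other cell types lay within this range, such as those of Tubb3 (neurons), Six2 (kidney) and Snai2 (neural crest). These levels therefore do not single out progenitor genes. Of the pluripotency markers Pou5f1, Nanog and Zfp42, intervals were assigned within 100 kb to Nanog alone.

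The Pax genes were accessible in both groups. Their strongest intervals per kb reached 40.3 CPM per kb at Pax6, 40.1 at Pax8, 38.0 at Pax5, 37.2 at Pax2, 30.3 at Pax3 and 28.4 at Pax7, as means over the 6 libraries. The median over all intervals tested was 7.81 CPM per kb, and the strongest of several intervals tends to lie above a median. An interval covered the gene end at lower coordinate of Pax2 (35.2 CPM per kb) and Pax6 (9.55), and the end at higher coordinate of Pax3 (23.7) and Pax7 (18.4). For Pax2 and Pax6 that end is where the promoter windows place the first start. The Pax7 window (139832919 to 139833218) lies inside the gene end at 139833530, and the Pax7 interval covers both. Against the median of 30.6 CPM per kb for intervals within 1 kb of a gene end, Pax2 lay above and Pax3, Pax6 and Pax7 lay below. In Pax6 the interval at the first start was weak per kb, while one 6.4 kb further into the gene held 39.4 CPM per kb and one at the second start window 18.9.

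**Figure D1:**
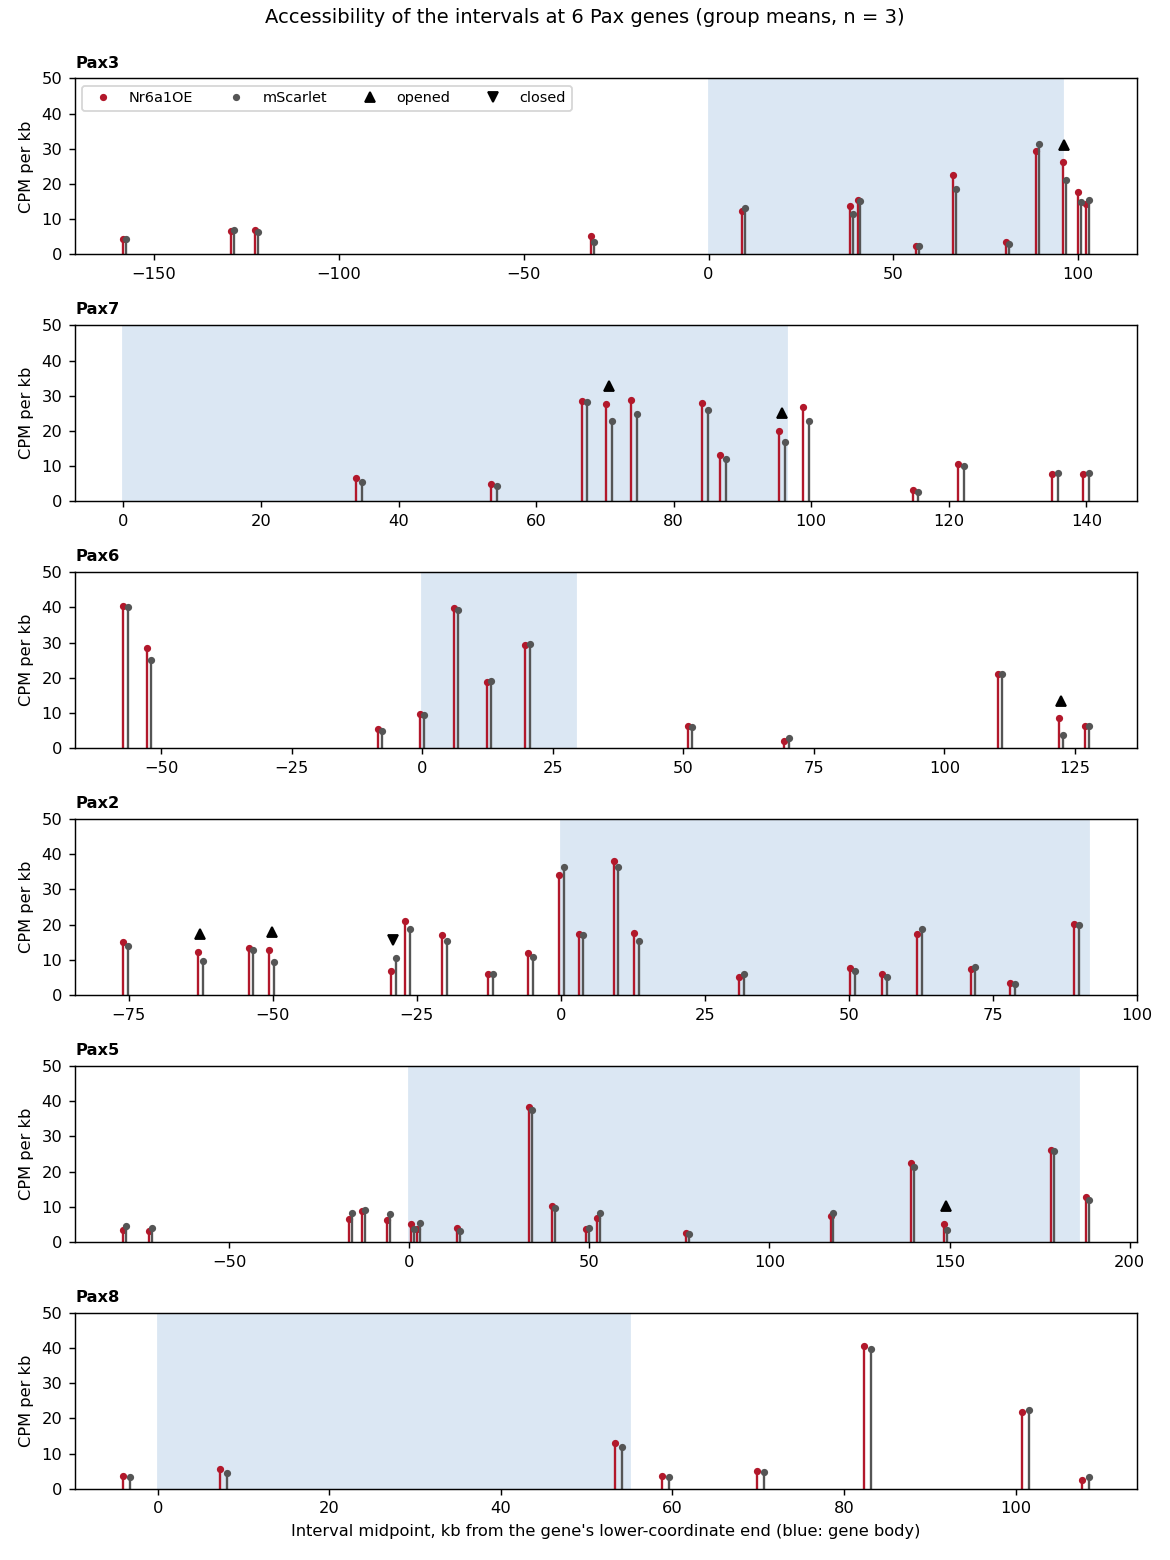
Accessibility (CPM per kb of interval, group means of 3 libraries) of each Pax interval against its distance in kb from the gene's lower-coordinate end, with gene bodies in blue, Nr6a1OE in red and mScarlet in grey. Triangles mark the 7 opened and 1 closed intervals; the paired lines of both groups have nearly the same height at most of the 85 positions.

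With Nr6a1 overexpression, 7 of the 85 Pax intervals opened and 1 closed. An interval is called opened when accessibility was higher in Nr6a1OE with a Benjamini-Hochberg adjusted p under 0.05 in edgeR's quasi-likelihood test over all intervals, and closed when it was lower. The opened share was 8.24% of the Pax intervals, against 0.469% of all intervals tested, and the closed share was 1.18%, against 1.26%. The Pax members and the rule were chosen with earlier results of these data known, including calls at Pax3, Pax7 and Pax6. These shares are therefore a description and no independent check. The opened intervals lay at 5 of the 6 genes, with 2 at Pax7, 2 at Pax2 and 1 each at Pax3, Pax6 and Pax5. The closed interval lay at Pax2, and Pax8 had 0 in either direction. The log2 fold change was between 0.26 and 0.43 at 5 of the 8, and -0.68, 0.65 and 1.12 at the other three, which held under 7 CPM on average in either group. The counts varied with the test and the libraries used, as did those over all intervals. DESeq2 opened 0 and closed 0 of the 85 (8 of them without an adjusted p), where it opened 4 and closed 99 of all 51637, or 0.00775% and 0.192%. A count of 0 among 85 is near these shares. Its unadjusted p was under 0.05 at 8 higher and 1 lower Pax intervals, against 1.57% and 2.61% of all tested. In edgeR these were 13 and 4, against 5.73% and 6.87%. An edgeR fit with an assumed 10% variation between cultures also opened 0 and closed 0 of the 85, against 19 and 205 of all, or 0.0368% and 0.397%. Leaving out 1 library lowered the opened count to 1 without mScarlet 1, to 2 without mScarlet 2 or Nr6a1OE 2, to 3 without Nr6a1OE 3, to 4 without mScarlet 3 and to 5 without Nr6a1OE 1. The closed count was 0 without mScarlet 1, mScarlet 3 or Nr6a1OE 3. Over all intervals these 6 fits opened 98 to 190, against 242 with all libraries.

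Over all 85 Pax intervals the log2 fold change was above 0 at 57 and below 0 at 28, with a median of 0.07. The share above 0 was 67.1%, against 50.8% of all tested intervals, whose median was 0.0038. All 3 Nr6a1OE libraries exceeded all 3 mScarlet libraries at 19 Pax intervals, or 22.4%, against 7.89% of all tested. They were all lower at 7, or 8.24%, against 8.73%. The Pax intervals had a median length of 1243 bases and a median level of 10.6 CPM, against 1031 bases and 7.32 CPM over all tested. The shares were not matched for length or level, and they too come from members chosen with earlier results known. Gene by gene, the median was 0.21 at Pax7, 0.11 at Pax3, 0.09 at Pax2 and Pax8, 0.03 at Pax6 and -0.03 at Pax5. Neighbouring intervals can share fragments and are not independent. In these bulk samples, fewer cells with an open site and less access per cell cannot be told apart.

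**Figure D2:**
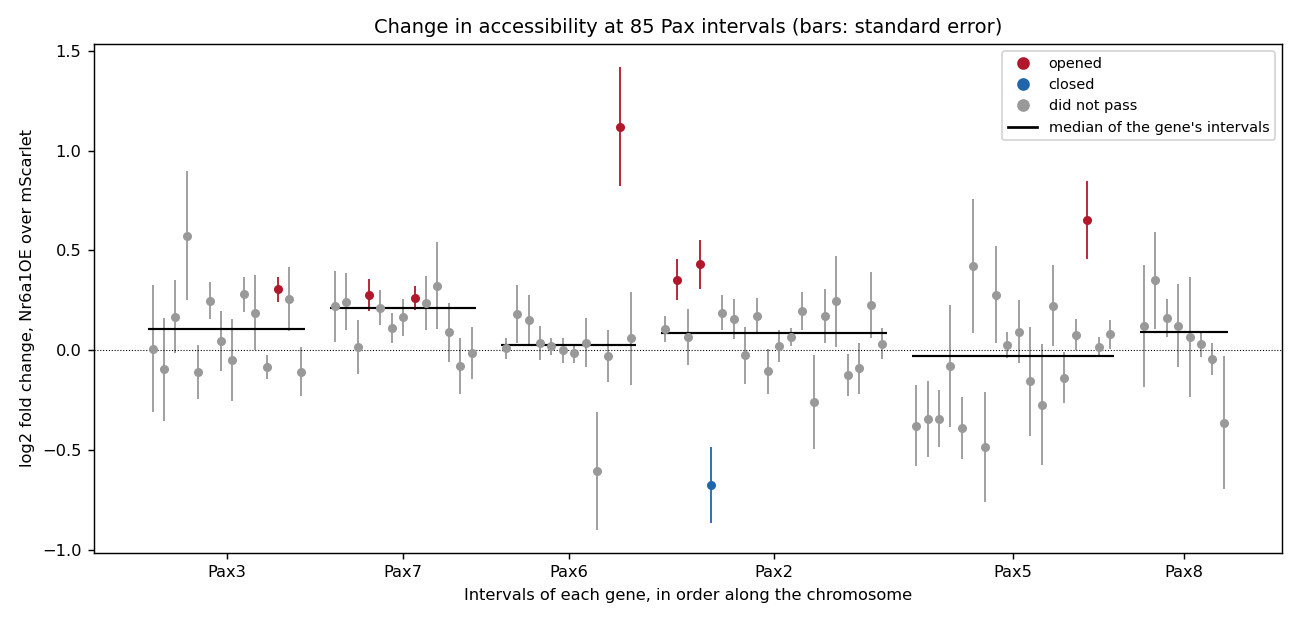
Log2 fold change (Nr6a1OE over mScarlet, with standard error) of the 85 Pax intervals, in chromosome order within each gene, with the median of each gene as a black line. Pax7 has 11 of 13 points above 0 and the highest median (0.21), while the points of Pax6 run from -0.61 to 1.12 around a median of 0.03.

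At Pax3, the interval over the gene end at higher coordinate opened (mm10, chromosome 1, 78196398 to 78198584). It held 55.4, 56.9 and 59.3 CPM in Nr6a1OE 1, 2 and 3, against 44.5, 49.0 and 45.8 CPM in mScarlet 1, 2 and 3. The groups did not overlap, and the lowest Nr6a1OE library was well above the highest mScarlet library. The difference was 0.31 on the log2 scale (SE 0.062, edgeR adjusted p = 3.09e-04). This call alone among the 8 held in each of the 6 fits that left out 1 library (highest edgeR adjusted p = 0.0171). It was lost in DESeq2 (0.30, adjusted p = 0.119) and with the assumed 10% variation (0.587).

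Of the 14 Pax3 intervals, 9 were higher and 5 lower in Nr6a1OE. The strongest per kb, 6.9 kb inside the same end of the gene, did not pass. It held 56.5, 56.9 and 54.6 CPM in Nr6a1OE and 60.2, 62.8 and 55.7 CPM in mScarlet, with overlapping groups and a value of -0.09 on the log2 scale (SE 0.059, edgeR adjusted p = 0.587). A pair of intervals further inside separated the groups but did not pass. The one at 78167219 held 29.5, 27.5 and 25.7 CPM in Nr6a1OE and 21.5, 22.6 and 23.9 CPM in mScarlet, without overlap (0.28, SE 0.089, edgeR adjusted p = 0.0756). The one at 78139007 held 25.7, 25.1 and 24.1 CPM in Nr6a1OE and 19.7, 19.5 and 23.5 CPM in mScarlet, again without overlap (0.25, edgeR adjusted p = 0.173). The lowest value at Pax3 among intervals of at least 5 CPM was -0.11 at 78110335, with overlapping groups (edgeR adjusted p = 0.811). The 3 intervals more than 100 kb from the gene held 2.1 to 5.7 CPM on average and did not pass.

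At Pax7, the paralogue of Pax3 that marks dorsal progenitors and muscle stem cells, 2 of 13 intervals opened. The first covers the gene end at higher coordinate and the promoter window printed above (chromosome 4, 139831295 to 139834312). It held 56.1, 61.9 and 63.0 CPM in Nr6a1OE, against 47.9, 54.9 and 48.7 CPM in mScarlet, and the lowest Nr6a1OE library was just above the highest mScarlet library. The difference was 0.26 on the log2 scale (SE 0.060, edgeR adjusted p = 0.00261). The call was lost without Nr6a1OE 3 (0.0698) or mScarlet 1 (0.0711), and in DESeq2 (adjusted p = 0.365).

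The second opened Pax7 interval lay inside the gene, 25.2 kb from the first by midpoints (139807023 to 139808228). It held 34.0, 32.9 and 33.3 CPM in Nr6a1OE, against 27.8, 24.5 and 30.1 CPM in mScarlet. The Nr6a1OE libraries were close together and all above the mScarlet ones. This came to 0.27 on the log2 scale (SE 0.081, edgeR adjusted p = 0.0433), and the call held only when mScarlet 3 was left out, with a highest adjusted p of 0.290 in the other such fits (without mScarlet 2). With chromosome medians removed its adjusted p was 0.0557, with Nr6a1OE 1 and 3 summed 0.0510 and in DESeq2 0.874.

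Most of the other Pax7 intervals had values on the same side. Of the 13, 11 were higher in Nr6a1OE, and 5 did not overlap between groups, all of them higher, against 7.89% above and 8.73% below of all tested. Next to the second opened interval, the one at 139810776 held 27.6, 30.2 and 26.5 CPM in Nr6a1OE and 22.2, 26.1 and 24.4 CPM in mScarlet (0.21, edgeR adjusted p = 0.234). The most accessible Pax7 interval per kb, at 139803928, held 8.81, 11.6 and 11.7 CPM in Nr6a1OE and 8.49, 10.2 and 12.99 CPM in mScarlet, with groups that overlapped (0.01, edgeR adjusted p = 0.977). The farthest pair outside the gene, 38.9 and 43.5 kb from its end, had values of -0.08 and -0.01.

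Pax6, which patterns the middle of the neural tube and the eye, had values close to 0 at its strong intervals. The interval over its first start held 29.0, 28.0 and 26.9 CPM in Nr6a1OE and 28.6, 28.7 and 24.7 CPM in mScarlet (0.03, SE 0.085, edgeR adjusted p = 0.920). The intervals inside the gene at 105673866, 105680249 and 105687446 had log2 fold changes of 0.02, -0.0006 and -0.02, with SEs of 0.044, 0.063 and 0.047. Their groups overlapped at all 3. The strongest interval per kb, 56.9 kb before the first start, held 72.4, 77.3 and 71.2 CPM in Nr6a1OE and 70.8, 74.0 and 74.2 CPM in mScarlet (0.01, SE 0.053, edgeR adjusted p = 0.965).

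The Pax6 interval that opened was a weak one in the Elp4 stretch beyond the end of the gene (chromosome 2, 105791045 to 105791451, 92.8 kb away). It counted 20, 31 and 25 fragments in Nr6a1OE, or 2.84, 4.38 and 3.15 CPM, against 9, 9 and 17 fragments in mScarlet, or 1.23, 1.31 and 2.12 CPM. The groups did not overlap. This was the highest log2 fold change among the 85 intervals, 1.12 (SE 0.30, edgeR adjusted p = 0.0173). It was lost without Nr6a1OE 2 (0.203), mScarlet 1 (0.142) or mScarlet 2 (0.0906), and in DESeq2 (0.571). Neither neighbour passed. The one at 105779337 held 13.2, 11.3 and 9.97 CPM in Nr6a1OE and 10.5, 10.6 and 13.6 CPM in mScarlet (-0.03), and the one at 105795860 had a value of 0.06, with overlapping groups at both. Before the gene, the interval at 105616310 held 10.2, 9.75 and 9.97 CPM in Nr6a1OE and 8.35, 9.33 and 8.74 CPM in mScarlet, without overlap (0.18, SE 0.14, edgeR adjusted p = 0.652). A weak interval 40.3 kb past the gene, at 105738143, held 2.41, 1.84 and 1.64 CPM in Nr6a1OE and 3.70, 2.77 and 2.50 CPM in mScarlet. Its groups did not overlap, and it did not pass (-0.61, SE 0.30, edgeR adjusted p = 0.364).

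**Figure D3:**
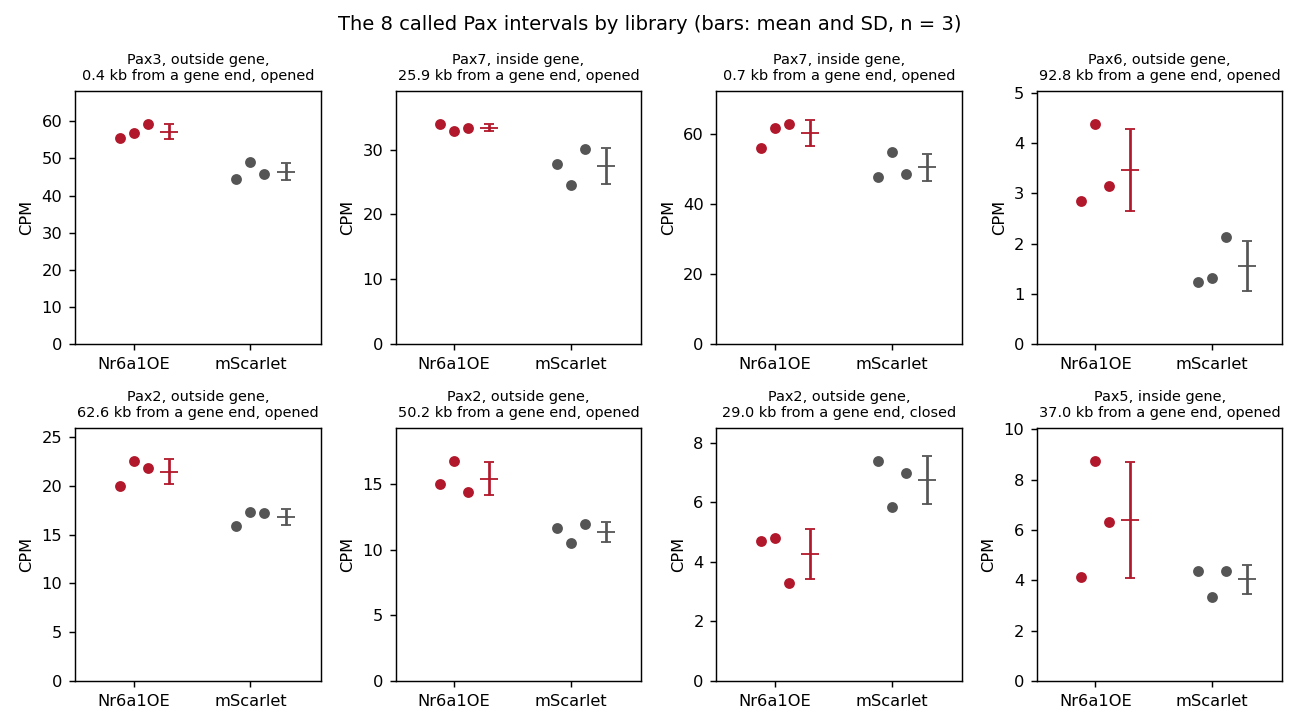
CPM in each library at the 8 called Pax intervals (points, libraries 1 to 3 from left to right; bars, mean and SD of 3). Nr6a1OE lies above mScarlet without overlap in the panels of Pax3, Pax7, Pax6 and the opened Pax2 intervals and below it in the closed Pax2 panel, while in the Pax5 panel 1 Nr6a1OE library (4.12 CPM) lies among the mScarlet libraries.

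Pax2, needed for the midbrain-hindbrain boundary, kidney and ear, had its 3 called intervals in the stretch upstream of its first start, and they went both ways. The outer 2 opened. The interval 62.6 kb upstream (chromosome 19, 44683165 to 44684909) held 20.0, 22.6 and 21.8 CPM in Nr6a1OE, against 15.9, 17.3 and 17.2 CPM in mScarlet (0.35, SE 0.10, edgeR adjusted p = 0.0364). The interval 50.2 kb upstream (44695802 to 44697006) held 15.1, 16.8 and 14.4 CPM in Nr6a1OE, against 11.6, 10.5 and 11.99 CPM in mScarlet (0.43, SE 0.12, edgeR adjusted p = 0.0305). Groups did not overlap at either. They lay 12.4 kb apart, and between them an interval at 44692489 had overlapping groups and a value of 0.07.

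The closed Pax2 interval lay nearer to the gene, 29.0 kb upstream (44717241 to 44717874). It held 4.69, 4.803 and 3.28 CPM in Nr6a1OE, against 7.39, 5.83 and 6.99 CPM in mScarlet, again without overlap. The difference was -0.68 on the log2 scale (SE 0.19, edgeR adjusted p = 0.0290). The next interval, 26.6 kb upstream, held 27.7, 25.6 and 29.3 CPM in Nr6a1OE and 25.5, 25.6 and 21.9 CPM in mScarlet, with a slight overlap and a value on the other side of 0 (0.19, edgeR adjusted p = 0.337). None of the 3 calls held in all fits without a library. Of the opened ones, the outer held only without Nr6a1OE 1 and the inner only without Nr6a1OE 3 (highest edgeR adjusted p = 0.196 and 0.198 in the other such fits, without mScarlet 1 and Nr6a1OE 2). Their values in the 6 fits stayed at 0.32 to 0.40 and 0.37 to 0.48. The closed one was lost without Nr6a1OE 3, mScarlet 1 or mScarlet 3 (0.279, 0.177 and 0.137), with values of -0.78 to -0.51 over the 6 fits. In DESeq2 the adjusted p of these 3 was 0.809, 0.760 and 0.834.

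Inside Pax2, 0 intervals passed in edgeR or DESeq2. The small interval at the first start held 15.8, 14.6 and 14.1 CPM in Nr6a1OE and 15.3, 15.2 and 17.1 CPM in mScarlet (-0.11, SE 0.11, edgeR adjusted p = 0.772). The strong interval over start windows 2 and 3, where the CpG-rich sequence above lies, held 103.7, 105.1 and 104.3 CPM in Nr6a1OE and 100.6, 101.7 and 97.0 CPM in mScarlet. These groups did not overlap, and the difference was small (0.07, SE 0.045, edgeR adjusted p = 0.580). At 8 of the 20 Pax2 intervals all Nr6a1OE libraries were above all mScarlet libraries, and at 2 they were all below. These shares are 40% and 10%, against 7.89% and 8.73% of all tested, so the share below is near that over all intervals.

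Pax5, the boundary gene that also commits B cells, had 1 opened interval of 18, inside the gene and 37.0 kb from its higher end (chromosome 4, 44673030 to 44674273). It held 4.12, 8.76 and 6.31 CPM in Nr6a1OE, against 4.38, 3.35 and 4.37 CPM in mScarlet. The groups overlapped, since Nr6a1OE 1 lay among the mScarlet libraries. The difference of the fit was 0.65 on the log2 scale (SE 0.20, edgeR adjusted p = 0.0490). Without Nr6a1OE 2 the value was 0.38 (edgeR adjusted p = 0.553), and the call held in only 1 of the 6 fits that left out a library, the one without Nr6a1OE 1. It was also lost with the replicate number as a block (0.0565), with chromosome medians removed (0.0551) and in DESeq2 (1.00).

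Outside the Pax5 end at lower coordinate, 4 of 5 intervals had all Nr6a1OE libraries below all mScarlet libraries, and 0 of the 4 passed in edgeR or DESeq2. The stretch was chosen after its values were seen. Over all 18 Pax5 intervals 4 were below and 1 above without overlap, against 8.73% and 7.89% of all tested. The one 5.8 kb away (44518330) held 7.24, 6.64 and 7.44 CPM in Nr6a1OE and 9.04, 9.76 and 9.24 CPM in mScarlet (-0.39, SE 0.15, edgeR adjusted p = 0.210). The one 16.2 kb away (44507943) held 9.80, 7.77 and 7.95 CPM in Nr6a1OE and 10.7, 10.8 and 10.9 CPM in mScarlet (-0.34, edgeR adjusted p = 0.243). The pair at 71.9 and 78.9 kb had values of -0.35 and -0.38, at 4 to 6 CPM. The stronger Pax5 intervals had values near 0. The strongest per kb, inside the gene at 44557729, held 48.4, 45.5 and 46.6 CPM in Nr6a1OE and 46.4, 41.4 and 49.6 CPM in mScarlet (0.03, SE 0.066, edgeR adjusted p = 0.923). The interval 2.3 kb beyond the gene start had a value of 0.08 (edgeR adjusted p = 0.711).

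Pax8, known from thyroid, kidney and inhibitory interneurons, had 0 called of 8 intervals in the edgeR test, 0 at an unadjusted p under 0.05 and 0 in DESeq2. No interval of it separated the groups. Of all tested, 0.469% opened and 1.26% closed in edgeR, and 5.73% and 6.87% had an unadjusted edgeR p under 0.05, higher and lower. All Nr6a1OE libraries were above all mScarlet libraries at 7.89% and below at 8.73%. With 8 intervals, counts of 0 are near these shares and do not set Pax8 apart. Nearest to its start, the interval at 24473371 held 21.7, 22.0 and 24.4 CPM in Nr6a1OE and 18.6, 22.7 and 19.9 CPM in mScarlet (0.16, SE 0.096, edgeR adjusted p = 0.498). The strongest, 27.7 kb upstream at 24502766, held 45.3, 45.1 and 43.3 CPM in Nr6a1OE and 45.0, 43.3 and 42.5 CPM in mScarlet (0.03, SE 0.067, edgeR adjusted p = 0.907).

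Summed over its intervals, each gene gave a level per library that can be read within the gene. Any fragment shared by neighbouring intervals is counted in each. Pax7 summed to 244.5, 263.9 and 261.8 CPM in Nr6a1OE and 216.7, 230.8 and 232.1 CPM in mScarlet. Pax3 summed to 228.6, 234.4 and 225.3 CPM in Nr6a1OE and 213.0, 215.9 and 205.6 CPM in mScarlet. Pax2 summed to 448.0, 445.0 and 455.2 CPM in Nr6a1OE and 423.5, 433.2 and 414.5 CPM in mScarlet. In these 3 genes every Nr6a1OE library was above every mScarlet library, with log2 ratios of the group means of 0.18, 0.12 and 0.08. The sums of Pax6, Pax5 and Pax8 overlapped between groups, with log2 ratios of 0.02, 0.0014 and 0.04. No test was made on these sums.

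**Figure D4:**
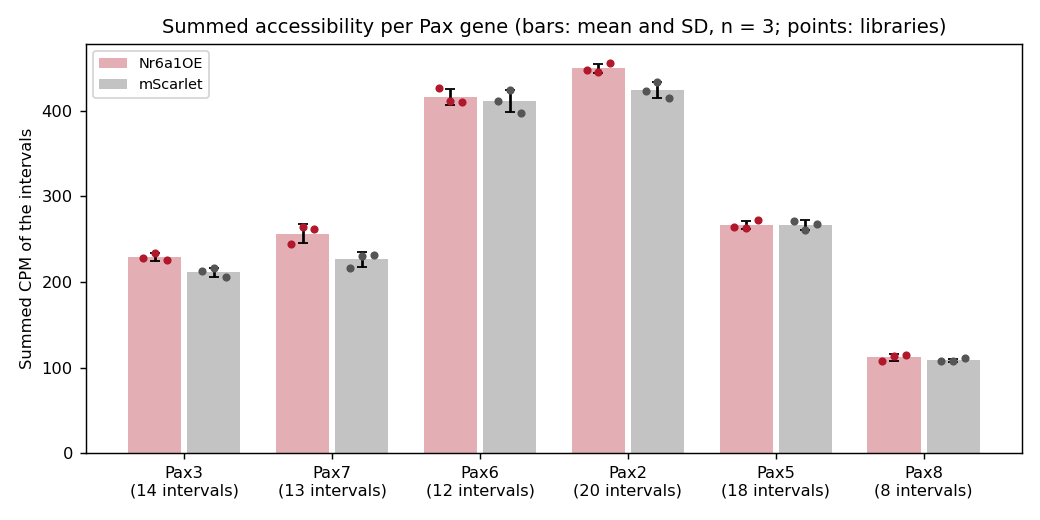
Summed CPM of the intervals of each Pax gene (bars, mean with SD of 3 libraries; points, libraries; Nr6a1OE left of mScarlet for each gene). The points of the groups do not overlap at Pax3, Pax7 and Pax2 and overlap at Pax6, Pax5 and Pax8; heights are to be read within a gene, since genes differ in the number and length of their intervals.

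Other genes of the dorsoventral system, counted by intervals within 100 kb of their ends, were called in both directions, against 0.469% opened and 1.26% closed of all intervals tested. Among 68 intervals of 11 dorsal progenitor factors, 2 opened and 2 closed (median log2 fold change 0.03). The opened ones lay at Gli3, the main hedgehog repressor (0.57, edgeR adjusted p = 0.00393), and 71.1 kb from Msx1, a BMP target (0.38, 0.0164). The closed ones lay 35.5 kb from Gsx1 (-0.36, 0.00158) and 79.2 kb from Olig3 (-1.22, 0.0203). Of these, Gli3 and Gsx1 held whichever library was left out, and Msx1 and Olig3 were lost in 4 of 6 such fits. DESeq2 called 0 of the 68, but gave no adjusted p at 4 of them, the Olig3 interval included.

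Among 37 intervals of 6 intermediate factors 2 opened, both assigned to Irx3, and 0 closed (median 0.06). Among 48 intervals of 7 ventral factors 0 opened and 1 closed, 4.4 kb from Nkx2-2, a ventral progenitor factor (-0.28, edgeR adjusted p = 0.0363; median of the list -0.07). Each of these 3 calls was lost in 4 or 5 of the 6 fits without a library, and DESeq2 called 0 in both lists. The unadjusted edgeR p was under 0.05 at 7 higher and 2 lower intermediate intervals, and at 2 higher and 6 lower ventral intervals. The shares of all tested were 5.73% higher and 6.87% lower. The summed level of the intermediate list was 1305 to 1313 CPM in Nr6a1OE and 1231 to 1286 CPM in mScarlet, and that of the ventral list 974 to 1005 CPM in Nr6a1OE and 1011 to 1029 CPM in mScarlet. Neither pair of ranges overlapped, and they ran in opposite directions.

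Among 46 intervals of 7 midbrain-hindbrain boundary genes, with which Pax2, Pax5 and Pax8 act, 1 opened and 1 closed (median 0.01). The interval 4.7 kb from Wnt1, a signal of that boundary, held 76.8, 77.6 and 75.8 CPM in Nr6a1OE and 62.3, 59.3 and 71.7 CPM in mScarlet (0.24, SE 0.054, edgeR adjusted p = 0.00119). It was lost without mScarlet 2 (0.0662). The interval 41.6 kb from En2 held 42.8, 35.6 and 37.9 CPM in Nr6a1OE and 47.9, 45.3 and 49.5 CPM in mScarlet (-0.30, SE 0.068, edgeR adjusted p = 0.00203), and was lost without Nr6a1OE 2 (0.0725). Neither was called by DESeq2. Of 36 intervals at inhibitory interneuron genes made with Pax2 and Pax8, such as those of Ptf1a, Lbx1 and Gad1, edgeR and DESeq2 called 0 (unadjusted p under 0.05 in edgeR at 2 higher and 2 lower, against 5.73% and 6.87% of all tested). Of 107 intervals at Pax cofactors and regulators, 1 opened near Meis1 (1.40, at 2.78 ± 0.432 CPM in Nr6a1OE and 1.06 ± 0.596 CPM in mScarlet) and 1 closed near Dach1 (-0.61, edgeR adjusted p = 4.93e-04). Meis1 was lost in 3 and Dach1 in 2 of the 6 fits without a library. DESeq2 called 0 of the 107, but gave no adjusted p at 13 of them, the Meis1 interval included. Of 14 intervals at Pax1, Pax4 and Pax9, the Pax genes outside the neural tube, edgeR and DESeq2 called 0 (unadjusted p under 0.05 in edgeR at 3 higher and 1 lower; median 0.08).

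Markers of other cell types that use Pax genes or could be present were set beside these values. Their calls are to be read against 0.469% opened and 1.26% closed of all intervals tested. Neuron markers (Tubb3, Elavl3, Elavl4 and Stmn2, 17 intervals) summed to 322 to 347 CPM in Nr6a1OE and 353 to 365 CPM in mScarlet, without overlap, and 1 of the 17 closed, 61.6 kb from Elavl4. The summed levels of neural progenitor, neural crest, paraxial mesoderm and muscle, intermediate mesoderm and kidney, B cell, endoderm and pluripotency markers overlapped between the groups. Of these lists, 1 neural crest interval opened, 77.8 kb from Ets1, and 2 neural progenitor intervals closed, 3.2 kb from Nes and 78.1 kb from Sox2. Of these 4 calls Nes alone held in every fit without a library and in DESeq2, and Ets1, Sox2 and Elavl4 were lost in 5, 3 and 4 of the 6. No interval within 100 kb was assigned to Tbx6, Cd79a, Pou5f1 or Zfp42. Intervals near them whose nearest gene end is another gene's were not counted, so their accessibility was not read. The part of cell makeup in the Pax values was not tested.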

How the data were processed

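The authors deposited raw fragment counts for 52223 consensus intervals in 6 libraries. Per the file headers, they were made with featureCounts 2.0.1 on read pairs, counting a fragment in every interval it overlapped by at least 0.2 of its length, so neighbouring intervals can share fragments. The build is mm10, per the submitters' processing notes. The aligner, the peak caller, duplicate removal and any shift for the Tn5 cut were not given in the sources used here. Whether replicates were separate cultures is not said in the labels, so the p-values cover the spread among these libraries alone, which could be technical. In the edgeR fit that spread was shared across intervals, with a common variation beyond counting noise of 1.47%. An edgeR p therefore does not rest on the spread of its own interval alone, as where the groups overlap at the opened Pax5 interval.

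All intervals were fitted together. filterByExpr removed 586 and left 51637, with all 85 Pax intervals among them. Counts were scaled by TMM and compared by edgeR 4.0.16 (glmQLFit and glmQLFTest, R 4.3.3, no covariate), and p-values were adjusted by Benjamini-Hochberg over all 51637. The SE is the log2 fold change over the root of its F statistic. Within groups, replicate counts exceeded sampling noise (chi-square over its degrees of freedom 1.04 to 1.10, intervals of at least 10 fragments). Above 100 fragments Nr6a1OE 1 and 3 did not (0.997), so a fit with that pair summed is among the alternatives. The others were DESeq2 1.42.0, its size factors, no filter, a replicate block, an assumed dispersion of 0.01, chromosome medians removed, each library left out, and narrower Pax rules.

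Gene positions and promoter windows came from RefSeq tables of GRCm38.p6. The intervals named were those nearest to each gene end, those called, the largest rise and fall per gene among intervals of at least 5 CPM and the strongest per kb; other neighbouring intervals were named after their values were seen. The members, lists and rules were chosen with earlier results of these data known, including calls at Pax3, Pax7 and Pax6. Each library held 6857763 to 8030029 fragments, and weak intervals rest on few of them. The sequence of intervals outside the promoter windows, and a Pax3 window, were not analysed here.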

Additional observations from a re-analysis of the deposited data

How the results depend on the processing

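The counts of 7 opened and 1 closed Pax intervals were the same with DESeq2 size factors and without the filter on low counts. Limiting the nearest end to 100 kb dropped uncalled intervals alone, and the Elp4 region had added none, so the counts of 7 and 1 under these rules are no check. They were 6 and 1 with Nr6a1OE 1 and 3 summed, and 5 and 1 with chromosome medians removed. DESeq2 gave 0 opened and 0 closed, as did a fixed dispersion of 0.01, while over all intervals they gave 4 and 99, and 19 and 205, against 242 and 652. Leaving out 1 library gave 1 to 5 opened and 0 to 1 closed, with 98 to 190 opened over all intervals. With the replicate number as a block 6 opened and 1 closed. Same-numbered libraries did not deviate together (correlations 0.03, -0.02 and -0.03 over 18021 intervals), so the numbers were not taken as pairs. The 8 called intervals kept their direction under all 13 refits. They were picked for their differences in these same counts, which the refits reuse, so that is no check of the calls. Of the 29 intervals named by rule, 11 changed sign in fits without 1 library, and none of the 11 was called in the full fit or passed in those fits. Over the 6 such fits their values ran from -0.0051 to 0.065 (Pax2 at 44835317), -0.19 to 0.021 (Pax3 at 78110335), -0.039 to 0.093 (Pax5 at 44557729), -0.024 to 0.037 (Pax6 at 105611133), -0.036 to 0.071 (Pax6 at 105667333), -0.043 to 0.037 (Pax6 at 105687446), -0.14 to 0.11 (Pax6 at 105779337), -0.12 to 0.21 (Pax7 at 139803928), -0.17 to 0.032 (Pax7 at 139871855), -0.23 to 0.40 (Pax8 at 24416630) and -0.11 to 0.044 (Pax8 at 24521037). The cause of the difference between edgeR and DESeq2 was not tested. Weak intervals were limited by depth, with 9 to 31 fragments per library at the opened Pax6 interval.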
